A study of Sus scrofa with 5 samples.

Results

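Mast cells were followed through 5 single-cell RNA libraries of pig skin (Sus scrofa). A cell was taken as a mast cell when it had at least 500 genes, at least 1 unique molecular identifier (UMI, a tag that counts captured RNA molecules) of MS4A2, UMIs of at least 3 of 7 genes (MS4A2, FCER1A, HDC, LTC4S, HPGD, GCSAML and RAB27B), and less than 2% of its UMIs from the fibrillar collagen genes COL1A1, COL1A2 and COL3A1. The rule found 1405 mast cells among 28654 cells with at least 500 genes, or 4.90%. Full-thickness wounds on the animals were covered with split-thickness skin grafts. One graft group was left untreated and the other lay under a hydrogel containing a FAK inhibitor (FAK is focal adhesion kinase, encoded by PTK2), with dressings changed every other day, and grafts were taken at day 7 or day 90 beside unwounded skin without treatment. Each of the 5 groups (untreated graft day 7, inhibitor graft day 7, untreated graft day 90, inhibitor graft day 90, unwounded skin) was 1 library of enzymatically dissociated, freshly isolated cells. The labels give no age, breed or number of pigs per library, so pig, library and treatment cannot be told apart. Replicate spread could therefore not be measured and no p-value is given. Every interval below is at 95% and covers counting error only.

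Mast cells are tissue-resident immune cells that sit near vessels and nerves in the dermis. They carry the high-affinity IgE receptor, store histamine and proteases bound to the proteoglycan serglycin in granules, and make prostaglandins, leukotrienes, cytokines and chemokines when stimulated. Stem cell factor, acting on the receptor KIT, keeps them alive, and the transcription factors GATA2, GATA1 and MITF hold their identity. In wounds they release mediators soon after injury.

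The UMIs of all mast cells of a library were added up and are given in CPM, that is, per 1000000 UMIs of the library's mast cells. Because the rule used the 7 genes above, their levels describe the choice and support nothing. MS4A2, the beta chain of the IgE receptor, stood at 5405 CPM in the untreated graft and 5774 CPM in the inhibitor graft at day 7, at 3260 and 4413 CPM at day 90, and at 4470 CPM in unwounded skin. All other cells of the same libraries held 4.86 to 22.2 CPM of it. FCER1A, the IgE-binding alpha chain, stood between 1636 and 2015 CPM and HDC, which makes histamine, between 706 and 1329 CPM. Of the 1405 cells, 889 held UMIs of all 7 rule genes and 1310 (93.2%) held at least 5.

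Mast cell genes that the rule did not use were also high in these cells. NPY, a neuropeptide, stood at 2657 CPM in the untreated and 2953 CPM in the inhibitor graft at day 7, at 912 and 1715 CPM at day 90, and at 2002 CPM in unwounded skin, at least 356 times the level of all other cells in every library. KIT was at least 66.1 times above the other cells, HPGDS (prostaglandin D synthase) 414 times, the amine transporter SLC18A2 295 times, GATA1 334 times, GATA2 24.6 times and the IL-33 receptor IL1RL1 15.8 times. SRGN, which encodes serglycin, stood at 4556 to 8074 CPM against 140 to 718 CPM in the other cells. The leading gene by this measure, the smallest ratio over the 5 libraries, was IL4, a type 2 cytokine, at 901 times, and the chemokine CCL1 followed the markers at 217 times. For IL4, GATA1, HPGDS, SLC18A2 and CCL1 the other cells of at least 1 library held fewer than 3 UMIs and were set to 3. Further genes in the top 25 outside the rule and the markers were the zinc transporter SLC30A2 (257 times), the sugar transporter family member SLC45A3 (76.8 times), the sphingosine-1-phosphate exporter MFSD2B (76.6 times), the basophil and mast cell antigen ENPP3 (72.7 times) and the docking protein CASS4 (61.1 times). The mast cell proteases CPA3, CMA1, TPSAB1 and TPSB2 had no match by symbol among the genes measured and were not used here. Of the 15 mast markers, 11 were measured, and RGS13 was at or near 0.

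**Figure D1:**
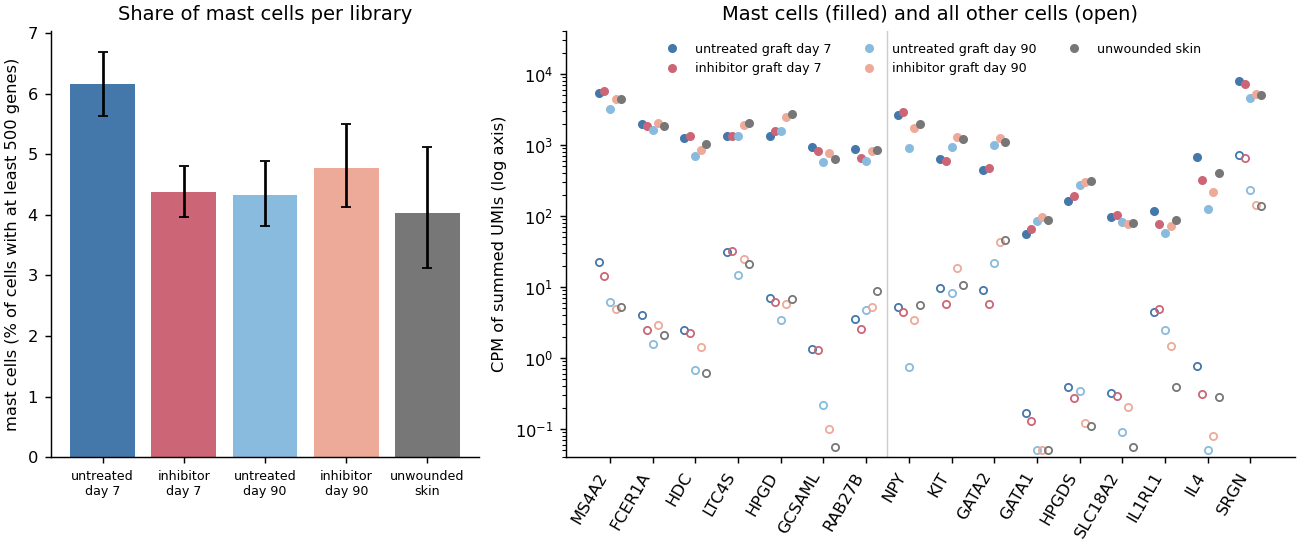
Left, the percent of cells with at least 500 genes that met the mast cell rule in each library, with 95% Clopper-Pearson intervals. Right, CPM of summed UMIs on a log axis for mast cells (filled) and all other cells (open) in each library, with genes of the rule to the left of the grey line; levels at or near 0 are drawn at the foot of the axis. The mast cell share was 6.15% in the untreated graft at day 7 and 4.04 to 4.78% in the other libraries, and the genes drawn right of the grey line lay above the other cells in all 5.

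The cells at the edge of the rule were less clear. The 45 mast cells with exactly 3 rule genes had a median of 9448 UMIs against 3334 over all mast cells, and held 519 CPM of MS4A2 against 5165, 20.6 CPM of NPY against 2453 and 53.6 CPM of KIT against 729. Just outside, the 202 cells with MS4A2 and 1 other rule gene had a median of 10474.5 UMIs, 272 CPM of MS4A2 and 6.69 CPM of NPY. At the collagen limit, 12 cells lay between 1 and 2% and 3 cells between 2 and 3%. Of 2433 cells with MS4A2, 976 were left out for too few rule genes and 52 for collagen.

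Mast cells gave fewer UMIs than the other cells. At day 7 their median UMI count was 4366 without and 4002 with inhibitor, at day 90 it was 1742 and 1837, and unwounded skin gave 2445.5, against 5820 to 10538 in the other cells. The summed mast cell UMIs were 2692909, 2219657, 757756, 533621 and 214309 in that order, so 1 UMI weighed 0.371 CPM in the deepest and 4.67 CPM in the shallowest sum, and comparisons with unwounded skin were the least precise.

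RNA of other cell types was present in these cells and differed between libraries. Cells with at least 3 markers of another class (foreign markers) numbered 131, 73, 95, 23 and 5 in the same order and held 37.9, 35.2, 61.9, 36.9 and 18.0% of the mast cell UMIs. The 10 pericyte and smooth muscle markers summed to 838 CPM in the untreated and 2090 CPM in the inhibitor graft at day 7, and to 2807 and 662 CPM at day 90, with all 10 above 0 in the 4 graft libraries. In unwounded skin they summed to 46.7 CPM with 6 of 10 at 0. The 10 fibroblast markers summed to 931, 1428, 3451 and 922 CPM in the grafts and 299 CPM in unwounded skin, against 26482 to 108527 CPM in the other cells. The 8 keratinocyte markers summed to 1341, 3181, 40.9 and 58.1 CPM in the grafts and 1027 CPM in unwounded skin, and the 9 endothelial markers to 274, 394, 783, 1226 and 182 CPM. The 11 T or NK markers summed to 622, 748, 701, 695 and 499 CPM, above the 273, 580, 73.4, 30.4 and 91.6 CPM of the other cells. NKG7, a granule membrane gene of cytotoxic cells, made up 78.5 to 94.4% of these sums, while the T cell genes CD3D, CD3E and CD3G were at 0 at day 90 and in unwounded skin. The 11 myeloid markers summed to 372, 207, 595, 491 and 453 CPM and lay above the other cells in the inhibitor graft at day 90 (315 CPM) and in unwounded skin (265 CPM), with CD68 and MRC1 leading and LYZ at 0 in all 5. The 7 Schwann cell markers summed to 1290 to 1950 CPM, of which the receptor gene ERBB3 gave at least 98.4%, and SOX10 and CDH19 were at 0 in all 5 libraries. The part of this RNA in the results below was not tested except where a value without those cells is given. Each comparison below was therefore repeated with 8 other choices of cells or of averaging, among them leaving out the cells with 3 markers of another class and leaving out the cells with the highest doublet scores, and a call that held its direction and size under all 8 is named as kept. To set the cells' own RNA apart, 133 genes at least 5 times above the other cells in all 5 libraries and at 50 CPM or more in at least 1 were gathered as mast-enriched genes, without the 7 rule genes. This set was made after the data were seen.

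Libraries shared 2 to 58 cell barcodes per pair, at most 3.66% of the smaller library (inhibitor graft day 90 with unwounded skin). No barcode was a mast cell in 2 libraries, and 3 mast cell barcodes occurred among the other cells of a second library.

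The first comparison was of the share of mast cells in each skin. The untreated graft at day 7 held 501 of 8147 cells (6.15%, Clopper-Pearson interval 5.64 to 6.69), and the inhibitor graft held 410 of 9386 (4.37%, 3.96 to 4.8). The day 90 grafts held 247 of 5706 (4.33%, 3.82 to 4.89) and 183 of 3829 (4.78%, 4.13 to 5.50), and unwounded skin held 64 of 1586 (4.04%, 3.12 to 5.12). The untreated day 7 share thus stood above the other 4, whose intervals overlapped. The inhibitor share at day 7 was 0.710 times the untreated one (0.622 to 0.811) and at day 90 1.10 times (0.907 to 1.34). Leaving out cells with 3 markers of another class gave 4.54% (4.10 to 5.02) and 3.59% (3.22 to 3.99) at day 7, 2.66% (2.26 to 3.12) and 4.18% (3.57 to 4.86) at day 90 and 3.72% (2.84 to 4.77) in unwounded skin. The untreated day 7 share then no longer stood clear of the others, and the untreated day 90 share was the lowest. The inhibitor share was then 0.791 times the untreated one at day 7 (0.680 to 0.919) and 1.57 times at day 90 (1.25 to 1.97). These are shares of dissociated cells, which the digestion and the other cell types in a library also set.

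IL4 and CCL1 were found in a minority of mast cells. Each cell was thinned at random to 1000 UMIs, which left out 2, 1, 24, 17 and 1 cells, so that shares could be compared at equal depth. IL4 was then found in 20.8% of mast cells in the untreated graft (17.4 to 24.7) and 17.4% in the inhibitor graft (13.8 to 21.4) at day 7, in 9.42 and 12% at day 90, and in 14.3% in unwounded skin (6.75 to 25.4). Without thinning the shares were 35.1, 31.2, 15.0, 15.8 and 18.8%. T or NK cells, thinned alike, held IL4 in 0 to 0.787% of cells and endothelial cells in 0 to 0.126%, so the mast cell shares were above the background of free RNA in every library. Detection of IL4 was highest at day 7 and lowest in the untreated graft at day 90, and the intervals of neighbouring libraries in that order overlapped.

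IL4 RNA was also concentrated. The 10% of mast cells with most IL4 held 82.2% of its thinned UMIs in the untreated and 80.9% in the inhibitor graft at day 7, whereas the top 10% for MS4A2 held 24.2 and 20.6%. The Fano factor, the variance over the mean, was 8.90 for IL4 and 2.84 for MS4A2 in the untreated graft at day 7. CCL1, a chemokine that acts on CCR8, was found in 18.8% of cells (15.5 to 22.5) in the untreated and 13.4% (10.3 to 17.1) in the inhibitor graft at day 7, in 3.14 and 2.41% at day 90 and in 4.76% in unwounded skin. Its Fano factor in the untreated graft at day 7 was 15.7. The share with CCL1 was highest at day 7, and the interval of unwounded skin (0.993 to 13.3) overlapped that of the inhibitor graft.

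The cells with IL4 and those with CCL1 were mostly different. In the untreated graft at day 7, 104 of 499 thinned cells held IL4 and 94 held CCL1, and 21 held both. CCL1 was found in 20.2% of IL4-positive and 18.5% of IL4-negative cells, and with inhibitor at day 7 in 16.9 and 12.7%. At day 90 and in unwounded skin at most 1 cell per library held both. In the untreated graft at day 7, PTGS2, the inducible cyclooxygenase, was found in 87.5% of IL4-positive and 55.9% of IL4-negative cells. NPY was found there in 91.3 and 71.9%. For NPY the order was the same with inhibitor at day 7 (88.7 and 81.4%), without it at day 90 (66.7 and 48.0%) and in unwounded skin (66.7 and 59.3%), and the reverse with inhibitor at day 90 (65.0 and 69.2%). For PTGS2 the same order held in the other 4 libraries, with 70.4 against 49.4% in the inhibitor graft at day 7, 85.7 against 62.4% and 80.0 against 69.9% at day 90, and 88.9 against 68.5% in unwounded skin. Cells of 1 library are not replicates, and these shares are given as a description.

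**Figure D2:**
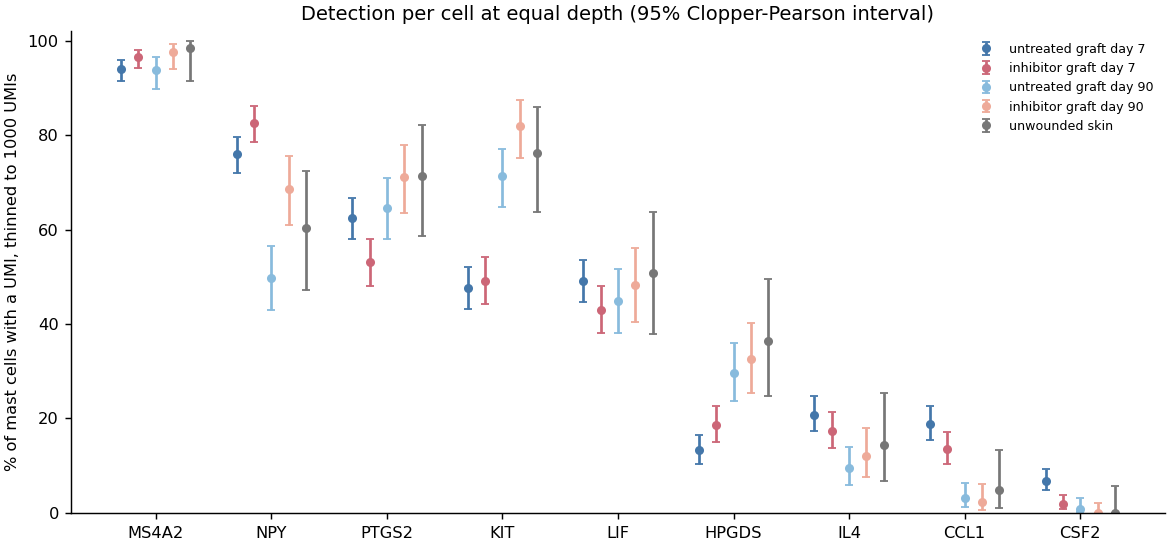
Percent of mast cells with at least 1 UMI of each gene after thinning every cell to 1000 UMIs, by library, with 95% Clopper-Pearson intervals. IL4 and CCL1 were found in a minority of cells with most at day 7, KIT was found in 47.7 and 49.1% of cells at day 7 and in 71.3 to 81.9% in the other libraries, and NPY was lowest in the untreated graft at day 90.

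The next comparison was between mast cells of inhibitor and untreated grafts at day 7. Genes were called higher or lower from a CPM ratio of 1.5-fold on, which is a size limit and no test, among genes at 50 CPM or more in either library. Of 2502 genes compared, 170 were higher (6.79%) and 134 lower (5.36%) in the inhibitor graft. With size factors by the median ratio of genes, 41.3% of the calls were higher, against 55.9% in CPM. The calls were kept under all 8 choices for 46 of the higher and 60 of the lower genes.

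Interferon response genes were higher in the inhibitor graft. The list holds 55 genes, of which 45 were measured. Of these 22 reached 50 CPM in either library, but 13 did so in the inhibitor graft alone, where they were high, so their passing already implied a difference. The other 9 reached 50 CPM in both libraries, and all 9 were higher, with a median log2 ratio of 1.63, where 3.72% of all genes at 50 CPM in both were higher. At any level, 44 members had a ratio, of which 40 were higher and 1 lower, against 2082 higher and 1105 lower of 10372 genes. IRF1, a transcription factor of the response, stood at 131 CPM in the untreated and 488 CPM in the inhibitor graft, 3.72-fold higher, and at 127 and 342 CPM without the cells of 3 foreign markers. GBP1, an interferon-induced GTPase, stood at 13 and 248 CPM, 19.1-fold higher (13.5 to 27.7), and at 0.598 (1 UMI) and 154 CPM without those cells. The immunoproteasome subunit PSMB9 was 5.11-fold higher (4.11 to 6.40), the peptide transporter TAP1 3.77-fold (2.89 to 4.98) and the antiviral MX1 4.71-fold (16.0 against 75.2 CPM). CD274, which encodes the checkpoint ligand PD-L1, was 7.33-fold higher (9.28 against 68.0 CPM, 4.78 to 11.7) and lay above the other cells of the inhibitor library, which held 36.2 CPM. All of these calls were kept. Among these genes IRF1 reached 50 CPM in both libraries. GBP1, PSMB9 (103 UMIs untreated, 434 with inhibitor), TAP1 (73 and 227 UMIs), MX1 and CD274 did so in the inhibitor graft alone, so their passing already implied a difference.

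The T cell attracting chemokines rested on few cells. CXCL9 stood at 28.6 and 540 CPM, but 911 of its 1198 UMIs in the inhibitor graft lay in 1 cell, and without the cells of 3 foreign markers 7 and 15 UMIs were left. CXCL10 stood at 115 and 1513 CPM, with 2029 of 3358 UMIs in 1 cell, and at 4.19 and 42.4 CPM without those cells. Both calls were kept in direction and size, and the levels rest on cells that carry RNA of another class.

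Other cells of the inhibitor graft showed the same direction. Cells were picked by marker counts. Of the interferon genes at 50 CPM or more in both libraries, 14 of 20 were higher in T or NK cells (median log2 0.82), where 2.31% of all such genes were higher. In myeloid cells 20 of 22 were higher (1.17, all genes 4.94%), and in endothelial cells 15 of 23 (0.69, all genes 1.21%). These comparisons rest on the same 2 libraries, and whether mast cells differed from the others was not tested. CXCL10 was more abundant outside mast cells, at 309 CPM in the other cells of the untreated and 4445 CPM of the inhibitor graft, and free RNA of it was not tested. After thinning, CXCL10 was found in 2.40 and 9.78% of mast cells, 1.15 and 11.8% of T or NK cells and 11.1 and 40.4% of endothelial cells.

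Mast cell cytokines went the other way. CSF2 (GM-CSF) stood at 268 CPM in the untreated and 50.01 CPM in the inhibitor graft at day 7, 5.37-fold lower, while the other cells held 27.1 and 24.8 CPM. In 1 cell lay 166 of its 723 UMIs in the untreated graft, and 52 of 111 in the inhibitor graft. Without the cells of 3 foreign markers CSF2 stood at 365 and 27.1 CPM. After thinning, CSF2 was found in 6.81 and 1.96% of mast cells and in 5.73 and 8.54% of endothelial cells. CCL1 stood at 1466 and 412 CPM, 3.56-fold lower (ratio 0.281, 0.261 to 0.302). IL4 stood at 686 and 324 CPM, 2.12-fold lower (ratio 0.472, 0.433 to 0.515). IL6 stood at 335 and 94.6 CPM, 3.54-fold lower, but its level was higher outside mast cells (934 and 1099.7 CPM), 423 of its 901 UMIs in the untreated graft lay in 1 cell, and without the cells of 3 foreign markers 17 and 8 UMIs were left. These 4 calls were kept. LIF, a cytokine of the IL-6 family, stood at 873 and 453 CPM, 1.93-fold lower, and was just short of 1.5-fold by the mean of per-cell CPM (log2 -0.58). IL13 was at 26.0 and 11.3 CPM, under the 50 CPM minimum in both.

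The differences in IL4 and CCL1 lay more in UMIs per cell than in the share of cells. At 1000 UMIs per cell, IL4 averaged 0.741 UMIs in the untreated and 0.384 in the inhibitor graft, with a maximum of 37 and 11 in 1 cell, while the intervals of the shares overlapped. CCL1 averaged 1.37 and 0.521 UMIs, with a maximum of 63 and 29. Of 55 cytokines, chemokines and growth factors, 46 were measured and 18 compared, of which 8 were lower and 2 higher, with a median log2 ratio of -0.17. The 2 higher were CXCL10 and the growth factor PDGFA (log2 0.60), and the first of these was kept.

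Receptors and signalling genes were among the other lower genes whose calls were kept. NLRP3, the sensor of the inflammasome, stood at 690 and 296 CPM, 2.33-fold lower (ratio 0.428, 0.391 to 0.468). PTGS2 stood at 2201 and 1045 CPM, 2.11-fold lower (ratio 0.475, 0.453 to 0.498). SUCNR1, a succinate receptor, stood at 372 and 195 CPM, 1.91-fold lower. The urokinase gene PLAU was 2.42-fold lower (818 against 337 CPM), the nuclear NF-kappaB regulator NFKBID 2.79-fold, the orphan nuclear receptor NR4A2 2.27-fold, the cytokine signalling inhibitor SOCS1 1.84-fold and the interleukin 2 receptor chains IL2RA and IL2RB 1.79- and 2.03-fold. In the other cells of the same libraries, PTGS2, LIF, SOCS1 and IL6 were 1.16 to 1.23 times as high in the inhibitor graft, so these did not share the mast cell direction, while NLRP3, PLAU and SUCNR1 were 0.713, 0.794 and 0.365 times as high there.

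**Figure D3:**
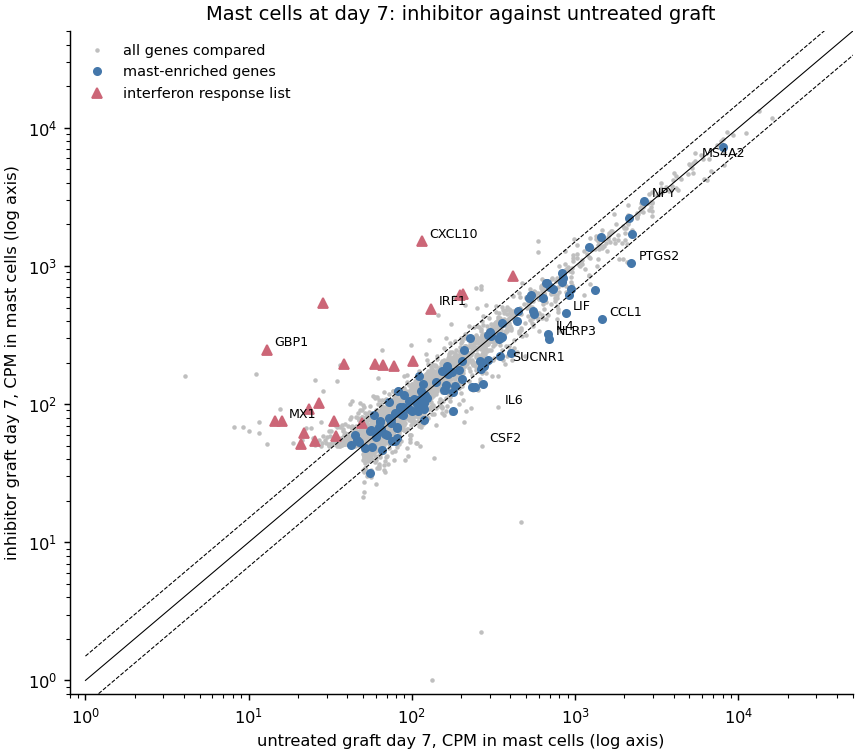
CPM in mast cells of the untreated graft (x) and the inhibitor graft (y) at day 7, both on log axes, for the 2502 genes compared, with mast-enriched genes as blue points and the interferon response list as red triangles. The solid line marks equal levels, the broken lines 1.5-fold, and a gene at 0 is drawn at 1 CPM; 21 of the 22 interferon genes lie above the upper broken line and CCL1, IL4, NLRP3, PTGS2 and LIF below the lower one.

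Most genes of the mast cell programme stayed within 1.5-fold at day 7. Of 115 mast-enriched genes compared, 1 was higher (0.87%) and 14 were lower (12.2%), with a median log2 ratio of -0.09, and 8 of the 14 were kept (CCL1, NLRP3, IL4, PTGS2, AMZ2, MRPS6, KDM2B and DHRS9). None of the 15 IgE receptor and proximal signalling genes compared, of 30 measured, and none of the 3 histamine genes passed 1.5-fold in either direction (2 and 1 of these belong to the rule), and of 15 granule genes only the protease CTSB was lower (log2 -0.61, not kept). NPY was 1.11-fold higher (1.07 to 1.15), KIT 0.929-fold (0.864 to 0.999) and GATA2 1.07-fold. Of the alarmin, complement and inhibitory receptors, 3 of 9 were lower and none higher, namely CD48, IL1RAP and IL1RL1, the last at 118 and 77.0 CPM and not kept. But 2 of the 9 reached 50 CPM in the untreated graft alone, so their passing already implied a difference. Of the 7 at 50 CPM in both libraries, 1 was lower and none higher, where 4.47% of all such genes were lower.

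RNA of the kinase that the hydrogel targets was sparse. PTK2 stood at 22.3 CPM in the untreated and 24.3 CPM in the inhibitor graft at day 7, at 37.0 and 37.5 CPM at day 90, and at 0 UMIs in unwounded skin, where 3 UMIs would be 14 CPM. The other cells held 46.5 to 63.9 CPM. The RNA level of a kinase does not report its activity. Of 25 genes of integrins, the FAK family and cytoskeletal adaptors compared at day 7, 2 were higher and 2 lower, with a median log2 ratio of 0.03. The myosin MYO1G was higher and kept (log2 0.92), MYL9, a smooth muscle myosin light chain, was higher and not kept, and the integrins ITGA5 (log2 -0.76) and ITGA6 (log2 -0.61) were lower and not kept. CASS4, a scaffold of the family that binds FAK, stood at 233 and 134 CPM at day 7 and at 141 and 80.6 CPM at day 90, 1.74- and 1.75-fold lower with inhibitor, and neither call was kept (log2 up to -0.41 and -0.52).

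Keratinocyte genes made up part of the named higher genes at day 7. CSTA, CLDN4, KRTDAP, LY6D and KRT10 were among the 12 highest ratios of genes above the level of the other cells (log2 2.10 to 3.06), and none was kept. With cells of 3 foreign markers left out, CSTA turned to a log2 ratio of -2.37 and KRTDAP to -1.37. Of the 24 genes that the naming rule gave at day 7, 17 were kept, among them UBE2L6, an enzyme of ISG15 conjugation, the RNA sensor IFIH1 and the heat shock gene HSP70.2.

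The same contrast was made at day 90. Of 3011 genes compared, 396 were higher (13.2%) and 303 lower (10.1%) in the inhibitor graft, and 117 and 82 of these calls were kept. With size factors by the median ratio of genes, 42.9% of calls were higher, against 56.7% in CPM. The 12 largest negative ratios by the naming rule held the smooth muscle genes PPP1R14A (log2 -5.94), MYH11 (-4.04), MYLK (-3.37), MYL9 (-2.84) and DES (-2.74), the arterial connexin GJA5 (-5.18), IL17B (-4.92), CPXM2 (-4.74), CCDC3 (-4.10), the growth factor TGFB3 (-3.10), SLPI (-3.00) and the transglutaminase TGM2 (-2.91), and none of these was kept. PPP1R14A, GJA5, IL17B and CPXM2 had 87, 103, 43 and 38 UMIs in the untreated graft, in 10, 4, 6 and 6 cells, and 1 or 2 UMIs in the inhibitor graft. The smooth muscle genes moved with the pericyte and smooth muscle markers given above (2807 and 662 CPM). MYH11 turned to a log2 ratio of 0.78 and TGFB3 to 0.52 without the cells of 3 foreign markers.

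Few interferon genes passed 1.5-fold in mast cells at day 90. Of 13 members compared, 1 was higher (IFIH1, log2 2.14) and 1 lower (ISG15, log2 -0.79), with a median of -0.09. IFIH1 reached 50 CPM in the inhibitor graft alone, on 10 UMIs untreated and 31 with inhibitor, 21 of these in 1 cell. Without the cells of 3 foreign markers 3 and 9 UMIs of it were left. In all other cells together, 7 of 12 members at 50 CPM or more in both libraries were higher and none lower, with a median of 0.65, where 8.21% of all such genes were higher and 4.93% lower. ISG15 itself stood at 354 CPM in mast cells of the untreated and 204 CPM of the inhibitor graft, while the other cells held 299 and 772 CPM.

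Mast-enriched genes stood higher in the inhibitor graft at day 90. Of 124 compared, 25 were higher (20.2%) and 3 lower (2.42%), with a median log2 ratio of 0.33. At 50 CPM or more in both libraries, 21 of 113 were higher (18.6%) and 2 lower (1.77%). Of all such genes, 7.06% were higher and 5.17% lower. The share of mast cell UMIs in cells with 3 foreign markers moved against it (61.9 and 36.9%). With those cells left out 15 genes were higher, with the top doublet scores left out 13, and 6 calls were kept. NPY was 1.88-fold higher (912 against 1715 CPM, 1.7 to 2.08). NPR3, a clearance receptor for natriuretic peptides, was 5.44-fold higher (15.8 against 86.2 CPM, 2.84 to 11.3) and the tetraspanin TSPAN32 4.73-fold (11.9 against 56.2 CPM, 2.19 to 11.3). NPR3 and TSPAN32 reached 50 CPM in the inhibitor graft alone, so their passing already implied a difference. RGS10 (log2 0.97), DOCK10 (0.86) and PTPN7 (0.78) were the other kept genes. CCL1 was lower and kept, at 168 CPM in the untreated and 26.2 CPM in the inhibitor graft, 6.39-fold, on 127 UMIs in 12 cells (76 in 1 of them) and 14 UMIs in 4 cells. It reached 50 CPM in the untreated graft alone. IL4 was 1.78-fold higher (124 against 221 CPM, 1.35 to 2.36) and not kept (log2 0.35 to 1.82 over the choices).

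Further kept genes at day 90 lay outside the mast-enriched set. HPSE, a heparanase that cuts heparan sulfate and heparin, stood at 14.5 and 61.8 CPM, 4.26-fold higher (2.10 to 9.34). It reached 50 CPM in the inhibitor graft alone, so its passing already implied a difference. The survival gene BCL2A1 was 2.76-fold lower (589 against 214 CPM, in 31 and 11 cells), the transcription factor RUNX3 3.60-fold (60.7 against 16.9 CPM) and the actin regulator CORO1A 4.38-fold (73.9 against 16.9 CPM). Much of this RNA lay in cells of 3 foreign markers. Without them 51 of 446 and 26 of 114 UMIs of BCL2A1 were left, 26 of 46 and 8 of 9 of RUNX3, and 11 of 56 and 6 of 9 of CORO1A. Of the 114 UMIs of BCL2A1 with inhibitor, 71 lay in 1 cell. RUNX3 and CORO1A reached 50 CPM in the untreated graft alone, so their passing already implied a difference. Of the IgE receptor list 1 of 19 was higher (the adaptor LCP2) and 1 lower (the calcium channel ORAI1), and of 12 vesicle fusion genes none passed 1.5-fold in either direction.

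**Figure D4:**
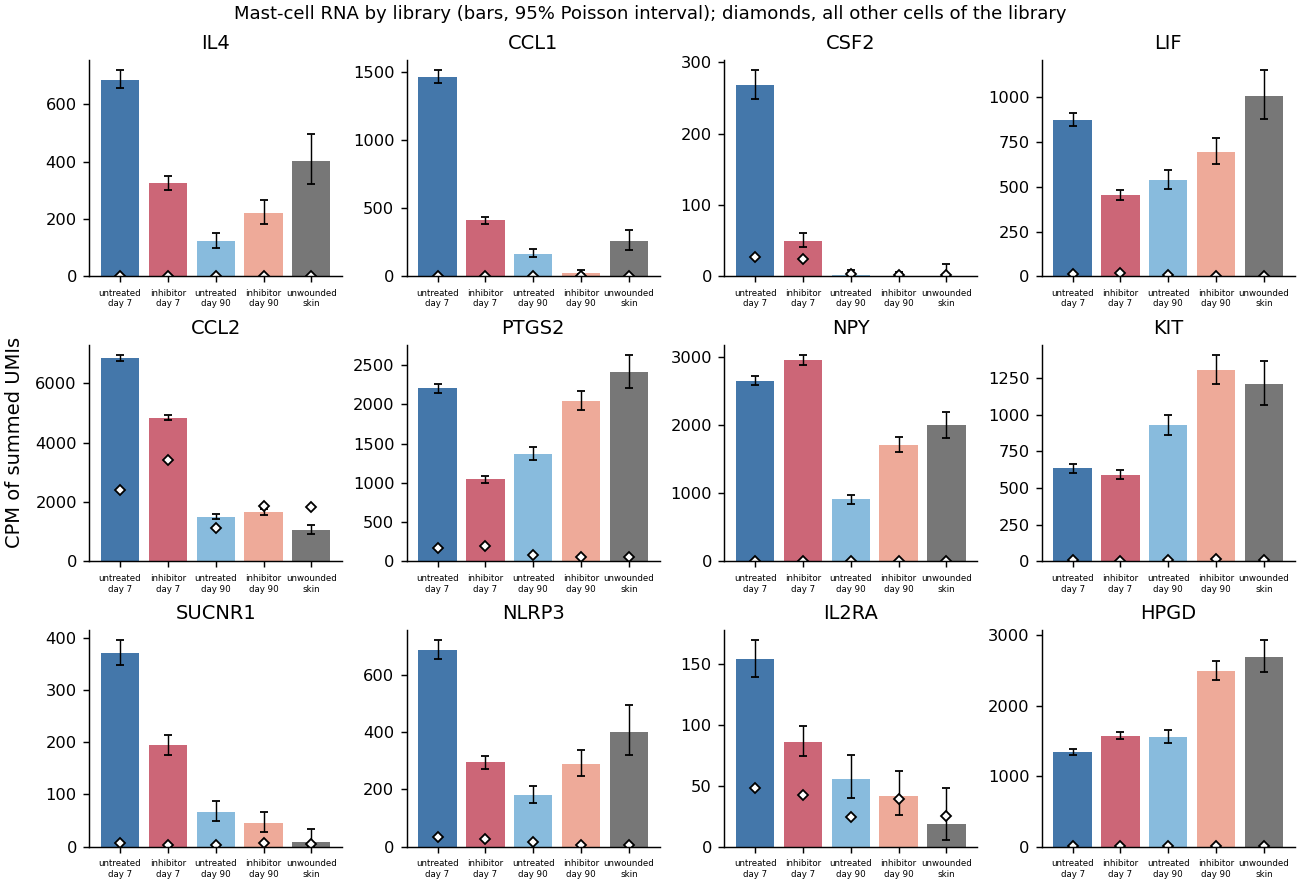
CPM of summed mast cell UMIs for 12 genes in the 5 libraries (bars, with 95% Poisson intervals) and in all other cells of each library (diamonds). IL4, CCL1, CSF2, SUCNR1, NLRP3 and IL2RA were highest in the untreated graft at day 7, KIT was lowest in the 2 day 7 libraries, and CCL2 was also abundant outside mast cells.

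Mast cells of grafts were then compared with those of unwounded skin. The 3 comparisons share the unwounded library of 64 mast cells, are not independent, and calls against it can hinge on a few UMIs. For the untreated graft at day 7, 598 of 2856 genes were higher (20.9%) and 884 lower (31%), and 338 and 651 of these were kept. The median log2 ratio of all genes was -0.12, a shift against which lists should be read.

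Several receptors and mediators were higher in the graft. SUCNR1 stood at 372 CPM in the untreated day 7 graft, 195 CPM in the inhibitor day 7 graft, 66.0 and 45.0 CPM at day 90 and 9.33 CPM (2 UMIs) in unwounded skin, and was 39.9-fold higher at day 7 without inhibitor than in unwounded skin (11 to 330). CSF2 was at 268 CPM against 0 UMIs in unwounded skin, at least 19.2-fold higher with the empty sum set to 3 UMIs. IL2RB and BCL2L1, a survival gene of the BCL2 family, were at least 7.56- and 5.78-fold higher by the same floor. HAVCR2 (TIM-3), an inhibitory receptor, stood at 242 against 32.7 CPM, 7.40-fold higher (3.57 to 18.5), and also above unwounded skin at day 90, at 91.1 CPM untreated and 67.5 CPM with inhibitor. CCL2, a monocyte attractant, was 6.39-fold higher (6829 against 1069 CPM, 5.61 to 7.31), whereas in the other cells it was 1.31 times as high. CCL1 was 5.61-fold higher (4.31 to 7.44) and ALOX5AP, which feeds leukotriene synthesis, 2.33-fold (1.81 to 3.05). All of these calls were kept. SUCNR1, CSF2, IL2RB, BCL2L1 and HAVCR2 reached 50 CPM in the graft alone, so their passing already implied a difference. CCL2, CCL1 and ALOX5AP reached it in both libraries.

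Across the cytokine list the calls were mixed. Of 22 members compared 12 were higher and 6 lower, but 8 reached 50 CPM in the graft alone. Of the 10 at 50 CPM in both libraries 4 were higher and 2 lower, with a median log2 ratio of 0.22, where 16.6% of all such genes were higher and 20.4% lower. Without the cells of 3 foreign markers 13 members could be compared, and their median was -0.16, against 0.03 for the same 13 with all cells. IL6 and CXCL10 were at 0 UMIs in unwounded skin and at least 23.9- and 8.22-fold higher by the floor of 3 UMIs with all cells. Leaving out the cells of foreign markers took them from 901 to 17 and from 310 to 7 UMIs in the graft, under the floor of unwounded skin, so no direction could be given there. The calls for CSF2, CCL1 and CCL2 held under all 8 choices.

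Some genes of mast cell identity, GATA2, KIT and HPGDS among them, were lower in the day 7 graft, and others were not. Of 130 mast-enriched genes compared, 51 were lower (39.2%) and 20 higher (15.4%), beside 31% lower and 20.9% higher among all genes, with a median log2 ratio of -0.32 against -0.12, and 45 and 13 of these were kept. At 50 CPM or more in both libraries, 37 of 106 were lower (34.9%), against the 20.4% of all genes, and 16 higher. GATA2 stood at 444 CPM in the untreated and 476 CPM in the inhibitor graft at day 7, at 1007 and 1239 CPM at day 90, and at 1111 CPM in unwounded skin. KIT stood at 636, 591, 928, 1304 and 1213 CPM in the same order, and HPGDS at 163, 190, 269, 302 and 313 CPM. For all 3 genes both day 7 libraries were below the other 3, and the untreated day 7 level was 2.50-, 1.91- and 1.91-fold below unwounded skin. ALOX5, the leukotriene synthase, was 2.18-fold lower. GATA1 was also lower, at 56.4 CPM in the untreated day 7 graft against 88.7 CPM in unwounded skin. NPY (2657 against 2002 CPM) and SLC18A2 (95.8 against 79.3 CPM) stood above unwounded skin there, short of 1.5-fold. Of the lineage transcription factors 10 of 17 were lower and 1 higher (LMO2), with IKZF1 at log2 -2.79 and TAL1 at -1.24. Of the 10 lower calls 5 were kept, and 8 had an interval that left out 1. The LMO2 call was kept, but its interval held 1. Of the 13 at 50 CPM or more in both libraries, 7 were lower and none higher. Of the IgE receptor list 10 of 22 were lower and 3 higher, all 13 kept, with lower values for the kinases SYK (log2 -1.84), FYN (-1.42) and BTK (-1.07) and higher ones for the adaptor GAB2 (1.44), the ubiquitin ligase CBLB (1.64) and ORAI1 (1.20). But 7 members reached 50 CPM in unwounded skin alone and 4 in the graft alone, so their passing already implied a difference. Of the 11 at 50 CPM or more in both libraries, 3 were lower (27.3%, all genes 20.4%) and none higher.

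Immediate early genes, which cells switch on within minutes of a stimulus, were also lower at day 7. Of 26 measured and 22 compared, 17 were lower and 1 higher (DUSP4), with a median log2 ratio of -1.42, and of the 20 at 50 CPM in both libraries 16 were lower and none higher. FOS stood at 872 CPM in the untreated and 1292 CPM in the inhibitor graft at day 7, at 4350 and 5907 CPM at day 90 and at 7172 CPM in unwounded skin. KLF4 stood at 114, 141, 883, 856 and 1432 CPM. In the other cells FOS and KLF4 were 0.17 and 0.15 times the unwounded level in the untreated day 7 graft, so the same direction was measured outside mast cells.

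The named genes with the lowest ratios at day 7 included secreted enzymes. DNASE1L3, a secreted nuclease, stood at 3.71 against 201 CPM, 54.0-fold lower, with 26 of the 43 UMIs of unwounded skin in 1 cell, and HPSE at 5.20 against 135 CPM, 26.0-fold lower. Both calls were kept, but both genes reached 50 CPM in unwounded skin alone, so their passing already implied a difference. HPSE rested on 14 UMIs in the graft and 29 in unwounded skin. Of the 24 named genes 20 were kept, and ZNF646, FCRLA, TRNT1 and BCDIN3D were not.

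By day 90 the untreated graft was nearer to unwounded skin in some genes and not in others. Of 3014 genes 582 were higher (19.3%) and 551 lower (18.3%), with 207 and 226 kept. KIT (0.765-fold, 0.662 to 0.885), GATA2 (0.907-fold, 0.783 to 1.05) and HPGDS (0.861-fold, 0.650 to 1.15) did not pass 1.5-fold. IL4 was 3.23-fold lower (124 against 401 CPM), NPY 2.20-fold (912 against 2002 CPM), NPR3 5.30-fold, NLRP3 2.22-fold and VEGFA, the vascular growth factor, 2.89-fold (137 against 397 CPM), all kept. In unwounded skin 38 of the 86 UMIs of IL4 lay in 1 cell, as did 35 of the 85 UMIs of VEGFA. The folds of IL4 and VEGFA without such a cell were not tested. TNF stood at 3.96 against 56.0 CPM on 3 and 12 UMIs. NPR3 and TNF reached 50 CPM in unwounded skin alone, so their passing already implied a difference. Of 128 mast-enriched genes 47 were lower (36.7%) and 5 higher (3.91%), and 13 of the lower calls were kept. With the cells of 3 foreign markers left out, 16 were lower and 20 higher. The named higher genes were mostly vascular and smooth muscle genes such as COL4A1, CLDN5 and MYH11, and of the 12 named RELB, a subunit of NF-kappaB, was the 1 that was kept.

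The inhibitor graft at day 90 had 660 of 3064 genes higher (21.5%) and 447 lower (14.6%) than unwounded skin, with 221 and 171 kept. Of 129 mast-enriched genes 7 were higher (5.43%) and 19 lower (14.7%), or 24 and 13 without the cells of 3 foreign markers. NPY was 0.857-fold (0.763 to 0.963), NPR3 1.03-fold (0.584 to 1.88) and KIT 1.08-fold (0.931 to 1.24) of the unwounded level. CCL1 was 9.96-fold lower (26.2 against 261 CPM) and kept, but on 14 UMIs in 4 cells against 56 UMIs in 4 cells, 36 of them in 1, and the thinned shares of cells with CCL1 given above overlapped (2.41 and 4.76%). The sterol synthesis gene SQLE was 7.05-fold lower (22.5 against 159 CPM) and INSIG1, a regulator of sterol synthesis, 5.38-fold lower, both kept. INSIG1 was also 4.79- and 4.56-fold lower in the untreated grafts at day 7 and day 90. Of its 80 UMIs in unwounded skin 22 lay in 1 cell, and 32 were left without the cells of 3 foreign markers. Unwounded skin then held 182 CPM of INSIG1. The untreated grafts then held 92.1 (day 7) and 83.1 CPM (day 90), and the day 90 graft with inhibitor 59.4 CPM. INSIG1 was thus still lower, but by smaller folds than with all cells. The glycolytic enzyme HK2 was 7.47-fold lower on 6 and 18 UMIs. CCL1, SQLE and HK2 reached 50 CPM in unwounded skin alone, so their passing already implied a difference.

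Interferon genes in both day 90 grafts stood above unwounded mast cells for 7 of 12 members in the untreated graft (5 kept) and 7 of 11 in the inhibitor graft (3 kept), with none lower, but 5 and 4 members reached 50 CPM in the graft alone. Of the 7 at 50 CPM in both libraries, 2 were higher in the untreated graft, where 8.77% of all such genes were, and 3 in the inhibitor graft (all genes 9.62%). IFI6 stood at 335 and 315 CPM against 37.3 CPM, on 254, 168 and 8 UMIs, of which 32, 9 and 2 were left without the cells of 3 foreign markers. It was higher in the other cells of all 5 libraries (847 to 2220 CPM). In the inhibitor graft, the median over the 8 members that could be compared without those cells was -0.10, against 0.45 for the same 8 with all cells.

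**Figure D5:**
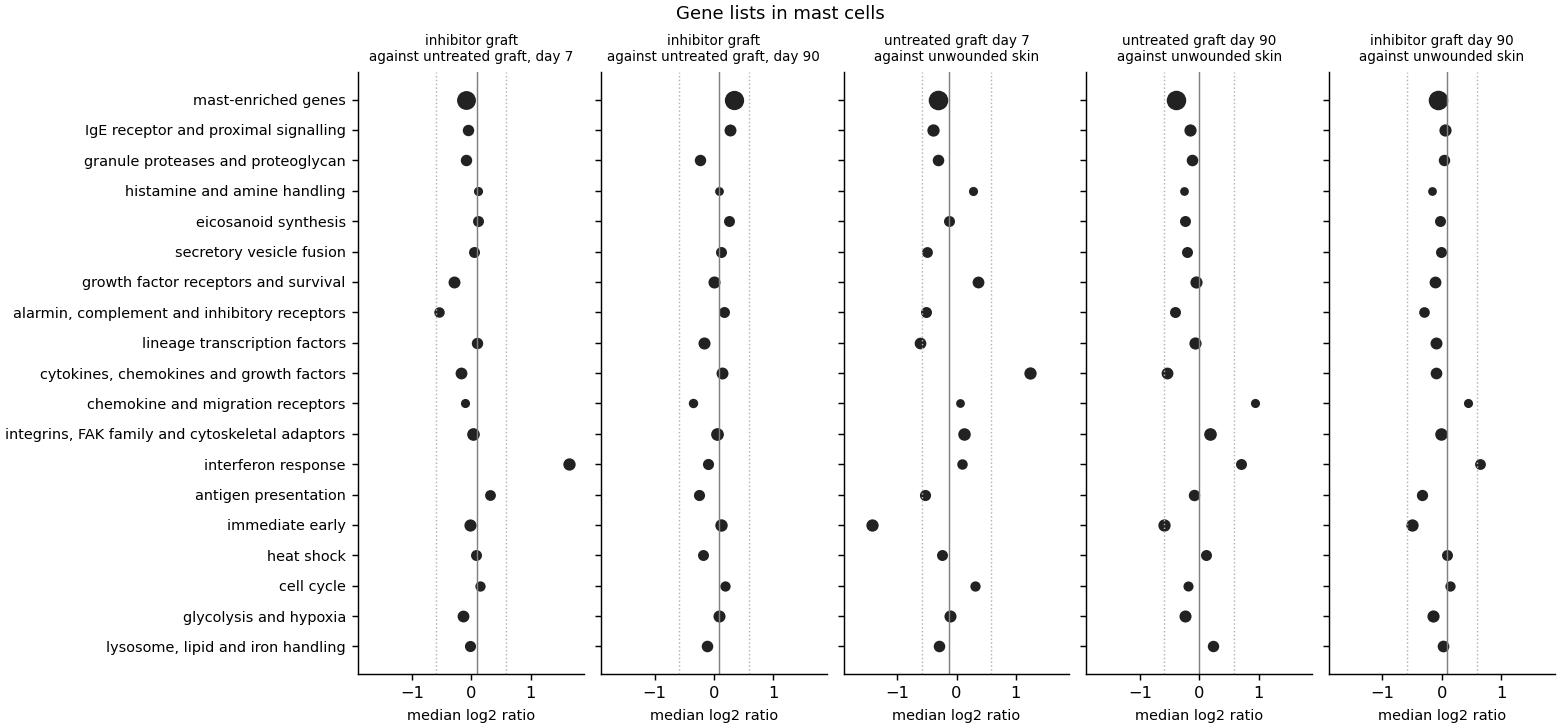
Median log2 ratio in mast cells of the mast-enriched genes and 18 gene lists (rows) for the 5 comparisons (panels); the size of a point grows with the number of genes compared, the grey line is the median of all genes compared and the dotted lines mark 1.5-fold. A gene enters where 1 of the 2 libraries reached 50 CPM. The interferon list stands at 1.64 in the inhibitor graft at day 7 and the immediate early list at -1.42 in the untreated graft at day 7 against unwounded skin.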

How the data were processed

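Per the labels' protocols, dissociated skin cells were run on the 10x Chromium 3' v3 platform and sequenced on an Illumina HiSeq. The authors deposited, per library, a matrix of raw counts of UMIs per gene and barcode, made with Cell Ranger per the submitters' processing notes. Neither the Cell Ranger release nor a genome build is named in the sources used here, though per the file headers the software version was 3.1.0. Those notes also name Seurat 3.1.1. The libraries held 32554 barcodes and 18485301 to 79671374 UMIs, and 20286 gene identifiers, of which 15351 had a symbol (677 of these from a gene table of Sscrofa11.1).

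Members and gene lists were chosen with earlier results of these data known. UMIs were summed over the mast cells of a library, scaled to CPM and compared as ratios with exact conditional binomial intervals. A sum of 0 UMIs was set to 3, with no ratio where the other sum lay under that floor. CPM had exact Poisson and shares exact Clopper-Pearson intervals. No count model was run, because each group was 1 library. Named genes were the 12 highest and 12 lowest ratios per comparison whose interval left out 1 and whose CPM, where higher, exceeded that of all other cells, with the markers, list members whose role is described, and the top 25 genes over the other cells. T or NK, myeloid and endothelial cells were picked, outside the mast cells, by the largest share of markers detected, at least 3. Doublets were kept. Scrublet (Scanpy 1.11.5) called 1, 1, 79, 3 and 4 cells by its automatic threshold, so its top scores at 0.8% per 1000 cells were left out as an alternative (50, 36, 11, 2 and 1 mast cells). The ratio code was tested on simulated data. Computations used SciPy 1.17.1, NumPy 2.4.6 and pandas 2.3.3 under Python 3.11.15, and plots Matplotlib 3.10.9.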

Additional observations from a re-analysis of the deposited data

Results flagged for a closer look

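In 20 genes that the text names or that belong to its lists, the log2 ratio of inhibitor to untreated graft passed 1.5-fold in 1 direction at day 7 and in the other at day 90. Each value compares 1 library with another, and the difference between the days was not tested. Cytokine and inflammation genes lower at day 7 and higher at day 90 were IL4 (-1.08 at day 7, 0.83 at day 90), IL6 (-1.82 and 1.11), IL1A (-0.72 and 0.81), NLRP3 (-1.22 and 0.68) and PLAU (-1.28 and 0.59). SLA, an adaptor of antigen receptor signalling, went the same way (-1.26 and 0.78), as did NABP1 (-1.29 and 1.03), the inositol transporter SLC5A3 (-0.80 and 0.62) and the integrin ITGA6 (-0.61 and 1.23). Higher at day 7 and lower at day 90 were the interferon gene ISG15 (1.65 and -0.79), the heat shock genes HSP70.2 (1.5 and -0.72) and DNAJB1 (0.65 and -0.62), the transcription factors LMO2 (0.98 and -0.84) and NFIL3 (0.66 and -1.23), the receptor IL13RA1 (1.03 and -1.08), the signalling inhibitor SPRY2 (0.68 and -1.65) and PDGFA (0.60 and -1.44). The smooth muscle genes MYH11 (1.05 and -4.04) and MYL9 (1.29 and -2.84) and the protease inhibitor SLPI (1.06 and -3.00) did so too, and pericyte and smooth muscle markers in mast cells moved with them (838 against 2090 CPM at day 7, 2807 against 662 CPM at day 90). Both calls were kept under the 8 other choices for 3 of the 20, ISG15, NABP1 and SLA. The direction turned under at least 1 choice for 5. IL6 at day 90 went to -0.58 by the per-cell mean. Without the cells of 3 foreign markers IL13RA1 went to -2.59, MYL9 to -0.37 and MYH11 to -0.52 at day 7, MYH11 to 0.78 at day 90, and PDGFA to -1.01 and 1.36.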

How the results depend on the processing

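No paired analysis was possible because each group was 1 library. The mean of per-cell CPM, other rules for cells, doublets left out, other size factors and other filters were tried, and thinning, a required interval and 50 CPM in both libraries were added after seeing the data. Of 35 values of the share, 29 moved by less than the interval. Leaving out cells with 3 markers of another class gave 4.54% and 3.59% at day 7 and 2.66% in the untreated graft at day 90, and asking for 1000 genes gave 1.73, 2.25 and 2.61% in the day 90 grafts and unwounded skin. Of 140 counts over all genes, 36 moved by over 1.5 times. In the order of the text (higher and lower for inhibitor against untreated at day 7 and day 90, then untreated day 7, untreated day 90 and inhibitor day 90 against unwounded skin), a 20 CPM minimum gave 522 and 242, 1079 and 701, 1114 and 1817, 1436 and 1135, 1614 and 913. Asking only for 1 UMI gave 2082 and 1105, 1900 and 1530, 1583 and 3162, 2041 and 1578, 2299 and 1120. Asking for 50 CPM in both libraries gave 79 and 95, 161 and 118, 310 and 381, 181 and 277, 205 and 220. Thinning gave 305 higher at day 7, 632 higher at day 90 and 753 lower for inhibitor day 90 against unwounded skin, and a required interval gave 369 and 334 and then 321 and 257 for the last 2 comparisons. The share of calls that were higher at day 7 was 68.3% at 20 CPM and 45.4% at 50 CPM in both libraries against 55.9%, and that minimum gave 39.5% against 51.4% and 48.2% against 59.6% for the untreated and inhibitor grafts at day 90 against unwounded skin. Mast-enriched counts ranged over the settings from 9 to 20 lower at day 7, 13 to 44 higher at day 90, 37 to 62 lower in the untreated graft at day 7 against unwounded skin and 16 to 73 lower at day 90.

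Of 900 list medians 863 stayed and 2 changed sign, and of 3478 values of single genes 2940 stayed and 29 changed sign, given here as log2 ratios. A gene at 0 UMIs whose other sum lay under the floor of 3 UMIs was given no ratio. The cause was not tested. For inhibitor against untreated at day 7, leaving out cells with 3 foreign markers turned CSTA to -2.37, KRT10 to -0.11 and KRTDAP to -1.37, the per-cell mean turned KRTDAP to -0.46, and thinning turned KRTDAP to -0.81 and LY6D to -0.17. At day 90, ESM1 went to -1.75 with 4 rule genes and -1.68 with 2 UMIs of MS4A2, MYH11 to 0.78 and TGFB3 to 0.52 without the cells of foreign markers, and DYSF to -0.29 and IL6 to -0.58 by the per-cell mean. For untreated day 7 against unwounded skin, TNF went to 0.59 with 4 rule genes, the cytokine median to -0.16 over 13 genes and TNF to 0.43 without the cells of foreign markers, and MCTP2 to 0.60 with thinning. For untreated day 90 against unwounded skin, PLEKHA5 went to 0.31 and TRNT1 to 0.24 with 4 rule genes. Without the cells of foreign markers CCL1 went to 1.37, EPAS1 to -1.13, HRH4 to 0.39, IL1RL1 to 0.10 and TRNT1 to 0.98. The per-cell mean gave HRH4 0.0098 and thinning gave CCL1 0.024. For inhibitor day 90 against unwounded skin, TNF went to 0.73 with 4 rule genes and TMEM273 to -0.0039 with 1000 genes. Without the cells of foreign markers the interferon median over 8 genes went to -0.10, BCDIN3D to 0.062 and TNF to 0.74. The per-cell mean gave TNF 0.15. Depth limits the comparisons with unwounded skin, where 3 UMIs are 14 CPM.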

Other observations

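LGALS13, a galectin known from placenta, was found at 93.6 CPM in mast cells of the untreated and 145 CPM of the inhibitor graft at day 7, at 6.6 CPM in the untreated day 90 graft, and at 0 UMIs in the inhibitor day 90 graft and unwounded skin. All other cells held at most 0.0987 CPM in any library. Against unwounded skin it was at least 6.68-fold higher in the untreated graft at day 7.

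Receptors for mast cell growth factors and mediators that no comparison above singled out were also present. The shared beta chain of the IL-3, IL-5 and GM-CSF receptors, CSF2RB, stood at 2224, 1704, 1122, 1020 and 1376 CPM in the untreated and inhibitor grafts at day 7, the untreated and inhibitor grafts at day 90 and unwounded skin. The histamine receptor HRH4 stood at 276, 189, 223, 287 and 350 CPM, and the ATP-gated channel P2RX1 at 151, 179, 178, 328 and 383 CPM. Cells with UMIs of at least 2 of 11 cell cycle genes numbered 36 of 501 and 39 of 410 at day 7, 6 of 247 and 4 of 183 at day 90, and 2 of 64 in unwounded skin. Depth also differed between these days, and phases were not called. In the untreated graft at day 7, CSF2 was found in 14.9% of the 94 thinned cells with CCL1 and in 4.94% of the 405 without it, and in the inhibitor graft in 1.82% of 55 and 1.98% of 354.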
